A study of Mus musculus with 2 samples.

Results

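The 10 genes described here, of tissue macrophages and monocytes, were measured in the intestine of newborn mice. They are the receptor Csf1r and its ligand Csf1, the complement genes C1qa, C1qb and C1qc, the surface receptors Adgre1, Mrc1, Cd163 and Timd4 of resident macrophages, and Ly6c2 of inflammatory monocytes. The 10 genes were chosen by symbol, out of 43346 Ensembl genes measured, and all 10 were found in both gene tables. RNA longer than 200 nt came from 1 intestine per animal, from 2 littermates of the B6NCrl strain at age 0 days whose sex was not collected, named pup 1 and pup 2 here. The pups carried no allele or treatment named in the labels, and both belong to 1 group. The labels do not say which segments were dissected or whether blood was washed out.

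Macrophages of the gut begin as cells seeded before birth from yolk sac and fetal liver, and in the adult much of this population is renewed by monocytes that enter from blood. Survival of both depends on the receptor CSF1R, a tyrosine kinase that binds the cytokines CSF1 and IL-34. Resident macrophages clear dying cells and debris, for which they carry scavenger and phosphatidylserine receptors and secrete C1q, the recognition part of the classical complement pathway, while LY6C marks the inflammatory monocytes that give rise to the incoming cells.

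The expected counts, which are estimated reads per gene, summed to 44568098 in pup 1 and 34797495 in pup 2, with a count above 0 for 23144 and 23001 genes. A gene listed at 0 can hide up to 3 counts, or 0.0673 CPM (counts scaled to library size) in pup 1 and 0.0862 CPM in pup 2. All 6 epithelial markers were detected, among them the fatty acid-binding protein gene Fabp2 at 12825 TPM in pup 1 and 11961 TPM in pup 2 and the intestinal transcription factor gene Cdx2 at 28.1 and 31.3 TPM. TPM is a transcript level normalised to transcript length and library, so levels of different genes can be set side by side. The libraries differed beyond sampling noise (chi-square per degree of freedom 12.9 over 17060 genes) and were kept as 2 samples. With 2 values the smallest p of an exact sign-flip test is 0.5, so none is printed. Intervals take in counting error of reads alone. The reads carry no molecular identifiers and so are not independent molecules, which means the intervals may be too narrow.

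The 10 genes spanned levels from under 1 TPM to about 80.2 TPM, and they kept the same order in both pups. Csf1r was highest, the 3 C1q genes followed, Csf1 came next, then Mrc1, Adgre1 and Timd4, with Ly6c2 and Cd163 lowest. Of the 10 genes, 8 reached 1 TPM in both pups, the level used here for detection, against 59.1% of 21461 nuclear protein-coding genes. The 2 genes below it were Ly6c2 and Cd163. Each of the 9 gaps between neighbours in the order was larger than its spread over the pups on the log2(TPM + 0.1) scale, though the last, Ly6c2 over Cd163, at 0.51 ± 0.50 (SD, n = 2), was barely so. Fewer cells of a type and less RNA per cell cannot be told apart in whole tissue.

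**Figure D1:**
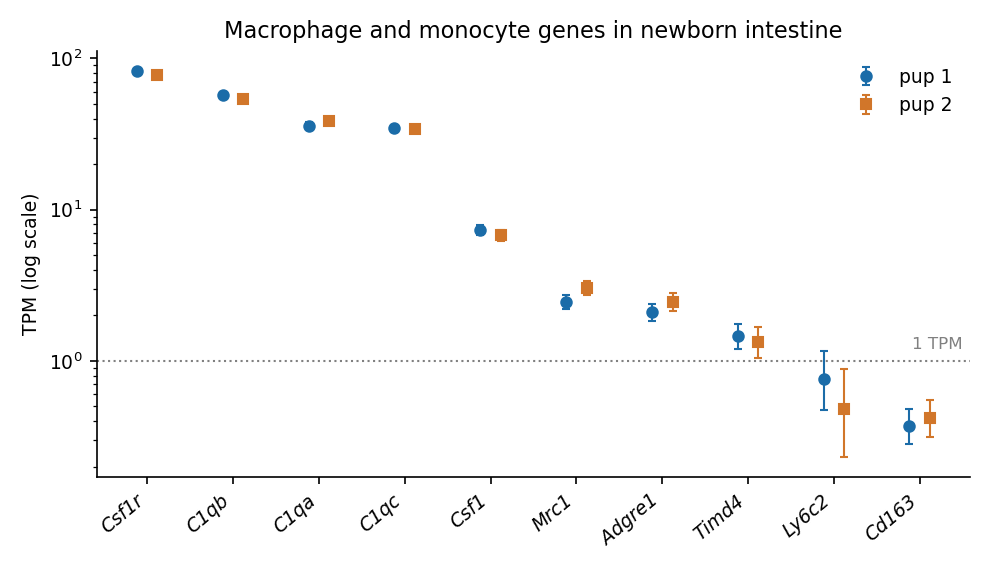
Level of each gene in TPM (log scale) in pup 1 (circles) and pup 2 (squares), with bars for the exact 95% Poisson interval from the read count. Csf1r and the C1q genes sit between 34.1 and 82.3 TPM, and Ly6c2 and Cd163 sit below the dotted line at 1 TPM in both pups.

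Csf1r, the receptor that macrophages need to survive, was the most abundant of the 10 with all its transcripts summed. The gene (ENSMUSG00000024621.11, GRCm38 chromosome 18, 61100598 to 61132149, plus strand) was at 82.3 TPM in pup 1 and 78.1 TPM in pup 2, a mean of 80.2 ± 3.01 (SD, n = 2). It lay above 92.7% of nuclear protein-coding genes in pup 1 and above 92.2% in pup 2. These levels rest on 12922 and 9062 expected counts, the deepest coverage among the 10 genes. A gene on the opposite strand, Hmgxb3, overlaps the last 873 bases of Csf1r (61131277 to 61132149). Hmgxb3 was at 4.27 TPM in pup 1 and 4.76 TPM in pup 2, and its whole count came to 5.94% and 7.24% of that of Csf1r. Whether counting used strand is not stated, so reads in the overlap cannot be assigned with certainty.

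Csf1r had 2 annotated transcripts with reads, which encode the same coding length of 2931 bases. Csf1r-202, which reaches into the overlap with Hmgxb3, carried 71.4% of the gene's TPM in pup 1 and 53.0% in pup 2. Csf1r-201, which ends before the overlap, was at 23.6 TPM in pup 1 and 36.7 TPM in pup 2. On this transcript alone, Csf1r would be below C1qb and C1qa in both pups and below C1qc in pup 1, and above the other 6 genes in both pups. The deposited posterior SD of the Csf1r-201 count was 318 reads in pup 1 and 223 reads in pup 2, against counts of 3196 and 3810.

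Csf1, the cytokine that CSF1R binds, was an order of magnitude lower than its receptor. Csf1 (ENSMUSG00000014599.6, chromosome 3, 107741048 to 107760469, minus strand) was at 7.32 TPM in pup 1 and 6.76 TPM in pup 2, a mean of 7.04 ± 0.396 (SD, n = 2). Csf1r stood 11.3-fold above Csf1, a log2 difference of 3.49 ± 0.03 (SD, n = 2). The other ligand of the receptor, Il34, was at 2.39 TPM in pup 1 and 2.19 TPM in pup 2, and Csf1 stood 2.99-fold above it, with nearly the same ratio in both pups (2.980 and 2.996). Csf1 was divided among several transcripts. Csf1-202, with the short coding length of 771 bases, carried 37.4% of the gene's TPM in pup 1 and 39.8% in pup 2. Csf1-201 and Csf1-203, both with a coding length of 1656 bases, carried 26.5% and 28.5% in pup 1 and 25.8% and 25.7% in pup 2.

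Transcription factors of the lineage were read beside the CSF1 axis. All 12 genes of that list, which holds Csf1 and Il34 too, were detected, with a median of 18.9 ± 0.647 TPM (SD, n = 2) against 2.98 TPM over all nuclear protein-coding genes. Among the highest were Id3 at 85.4 TPM in pup 1 and 94.5 TPM in pup 2, Irf8 at 68.4 and 74.6 TPM, and Cebpb at 42.2 and 39.99 TPM. IRF8 is a factor of macrophage and monocyte differentiation, while ID3 and C/EBP beta are also made by many other cells. Which cells of the intestine made Irf8, Id3 or Cebpb was not tested. Of the growth factors and receptors of related lineages, 3 of 7 measured genes were detected, Kitl at 12.3 and 12.8 TPM, Csf2ra at 8.57 and 10.8 TPM and Csf2rb at 1.11 and 1.01 TPM. The granulocyte growth factor gene Csf3 was under 0.1 TPM in both pups.

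The 3 C1q genes encode the chains A, B and C, which assemble together into the C1q molecule. They lie side by side on the minus strand of chromosome 4, within 18675 bases (136880129 to 136898803). C1qb (ENSMUSG00000036905.8, 136880129 to 136886187) was at 57.3 TPM in pup 1 and 54.3 TPM in pup 2, a mean of 55.8 ± 2.14 (SD, n = 2). C1qa (ENSMUSG00000036887.5, 136895917 to 136898803) was at 36.0 TPM in pup 1 and 38.5 TPM in pup 2. C1qc (ENSMUSG00000036896.5, 136889804 to 136893065) was at 34.5 TPM in pup 1 and 34.1 TPM in pup 2. The chains were thus within a narrow band, with C1qb highest in both pups. C1qb stood 1.498-fold above C1qa (log2 0.58 ± 0.13) and 1.63-fold above C1qc (log2 0.70 ± 0.04; SD, n = 2 each). C1qa and C1qc were closest, at a log2 difference of 0.12 ± 0.08, and their order turned round to -0.11 when counts were not divided by length. Nearly all reads of each chain fell on 1 transcript.

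Promoter windows were available for C1qb and C1qc, and none for C1qa. Those of C1qb and C1qc are given because both hold a match to the binding motif of PU.1, a transcription factor of the myeloid lineage encoded by Spi1. Windows run from 250 bases before to 50 after the RefSeq transcription start on GRCm38.p6, 5′ to 3′ on the gene's strand, with motif matches in capitals. Of the 10 genes, 7 are counted in the motif results (Csf1, C1qb, C1qc, Mrc1, Cd163, Timd4 and Ly6c2). Csf1r was left out of these counts by choice, and no motif match was found for it. C1qa and Adgre1 had no window and were not searched. C1qb is at chr4:136886151-136886450 and C1qc at chr4:136892865-136893164, both on the minus strand.
C1qb: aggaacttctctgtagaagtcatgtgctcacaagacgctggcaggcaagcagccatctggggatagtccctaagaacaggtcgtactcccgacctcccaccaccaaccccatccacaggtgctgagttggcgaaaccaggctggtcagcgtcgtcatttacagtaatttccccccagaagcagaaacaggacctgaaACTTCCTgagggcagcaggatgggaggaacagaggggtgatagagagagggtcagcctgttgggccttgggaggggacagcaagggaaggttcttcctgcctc
C1qc: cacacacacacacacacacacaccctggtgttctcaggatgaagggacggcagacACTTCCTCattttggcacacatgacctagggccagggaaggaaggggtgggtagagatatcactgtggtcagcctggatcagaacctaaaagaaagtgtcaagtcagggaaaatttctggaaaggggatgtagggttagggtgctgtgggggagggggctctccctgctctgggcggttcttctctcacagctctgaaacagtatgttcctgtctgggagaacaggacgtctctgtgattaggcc
The motif AGGAAGT, searched on both strands, was found in 4 of the 7 genes (C1qb, C1qc, Mrc1 and Ly6c2), against 9.35% of 32851 RefSeq promoter windows. In C1qb it lay on the opposite strand at positions -53 to -47 from the start. The longer GAGGAAGT, which contains the first motif, was found in 2 of the 7 (C1qc at positions -195 to -188, and Ly6c2), against 3.20% of windows. In C1qc too the match was on the opposite strand, so both sequences show it as its reverse complement. A gene was counted if any of its windows held the motif (Ly6c2 has 2), while the shares are of single windows. Counts and shares are thus not like for like, and no enrichment is read from them. The motifs were chosen with these sequences in view, and a match is a description of the letters, not evidence of binding. Spi1 itself was at 4.14 TPM in pup 1 and 5.85 TPM in pup 2.

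The other genes of complement were read beside C1q, since C1q acts with the proteases C1r and C1s. C1ra, which encodes C1r, was at 6.55 TPM in pup 1 and 6.05 TPM in pup 2, and C1s1, which encodes C1s, was at 7.28 and 8.31 TPM. C1qb stood 8.74-fold above C1ra (log2 3.13 ± 0.02) and 7.10-fold above C1s1 (log2 2.83 ± 0.19; SD, n = 2 each). Of 16 genes of the classical and alternative pathways, their receptors and regulators, 14 were detected, with a median of 7.05 TPM. The highest were the chaperone and C1q-binding protein gene Calr at 406 TPM in pup 1 and 380 TPM in pup 2, C1qbp at 117 and 110 TPM, the alternative pathway gene Cfb (factor B) at 68.6 and 77.0 TPM and C2 at 48.6 and 53.4 TPM. Calr and C1qbp are made by most cells. Cfd, which encodes factor D of the alternative pathway, had no reads in either pup.

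Surface receptors of resident macrophages were far lower than Csf1r and C1q. Mrc1, the mannose receptor CD206 (ENSMUSG00000026712.3, chromosome 2, 14229392 to 14332057, plus strand), was at 2.46 TPM in pup 1 and 3.02 TPM in pup 2, a mean of 2.74 ± 0.396 (SD, n = 2). Adgre1, which encodes the antigen F4/80 (ENSMUSG00000004730.10, chromosome 17, 57358691 to 57483527, plus strand), was at 2.10 TPM in pup 1 and 2.45 TPM in pup 2. Both thus lay near the middle of all nuclear protein-coding genes, with Mrc1 above 48.1% and 49.8% of them and Adgre1 above 46.5% and 47.5%. Csf1r stood 33.9-fold above Adgre1 (log2 5.08 ± 0.20), while Mrc1 stood 1.19-fold above Adgre1 (log2 0.25 ± 0.05; SD, n = 2 each). In its family, Adgre1 was 5.93-fold below Adgre5, the broadly expressed CD97 gene, which was at 13.8 TPM in pup 1 and 14.1 TPM in pup 2. Mrc1 stood 1.95-fold above Mrc2, a collagen receptor gene at 1.35 TPM in each pup.

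Both genes have 2 annotated transcripts. Adgre1-202 carried 97.0% of Adgre1 in pup 1 and 94.4% in pup 2. Mrc1-201, the coding transcript, carried 66.1% of Mrc1 in pup 1 and 66.2% in pup 2, and the rest went to Mrc1-202, a retained-intron transcript, which held 16.1% and 16.0% of the gene's reads. Mrc1 levels in TPM thus include a transcript with no coding sequence. On Mrc1-201 alone, at 1.62 TPM in pup 1 and 2.00 TPM in pup 2, Mrc1 would be below Adgre1 in both pups.

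Timd4 encodes TIM-4, a receptor by which resident macrophages bind phosphatidylserine on dying cells. Timd4 (ENSMUSG00000055546.6, chromosome 11, 46810800 to 46844332, plus strand) was at 1.46 TPM in pup 1 and 1.33 TPM in pup 2, a mean of 1.40 ± 0.0919 (SD, n = 2), from 109 and 76 reads. Adgre1 stood 1.59-fold above Timd4 (log2 0.67 ± 0.24; SD, n = 2). In its family, Timd4 stood 5.43-fold above Havcr2, the TIM-3 gene, at 0.17 TPM in pup 1 and 0.18 TPM in pup 2. Timd2 was at 1.51 and 2.19 TPM, and Havcr1, the TIM-1 gene, was under 0.1 TPM in both pups. The Timd4 window (chr11:46810549-46810848, plus strand) is given because it holds a composite motif of PU.1 and interferon regulatory factors, in capitals.
Timd4: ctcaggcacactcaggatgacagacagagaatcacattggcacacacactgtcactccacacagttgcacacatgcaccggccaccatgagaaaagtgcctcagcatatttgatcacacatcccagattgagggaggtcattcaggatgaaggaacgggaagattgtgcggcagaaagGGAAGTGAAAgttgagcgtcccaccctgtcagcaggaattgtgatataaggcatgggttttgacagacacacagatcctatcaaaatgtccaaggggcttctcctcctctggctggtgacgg
This motif, GGAA and TGAAA with any 1 base between them, was searched on both strands. It lay at positions -72 to -63 in Timd4, and in no other of the 7 genes counted. It was found in 0.731% of all windows. As with the other motifs, the match describes the letters, and binding to it was not tested.

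Cd163, the scavenger receptor for haemoglobin bound to haptoglobin, had the lowest TPM of the 10 genes, while Ly6c2 had the fewest reads. Without length normalisation their order turned round, with Ly6c2 over Cd163 at -1.68 on the log2 scale, against 0.51 ± 0.50 (SD, n = 2) with it. Cd163 (ENSMUSG00000008845.5, chromosome 6, 124304656 to 124330527, plus strand) was at 0.37 TPM in pup 1 and 0.42 TPM in pup 2, with exact 95% Poisson intervals of 0.282 to 0.477 and 0.312 to 0.554 TPM. It was measured from 59 and 50 reads, so it was low, not absent. Timd4 stood 3.02-fold above Cd163 (log2 of Cd163 over Timd4 -1.60 ± 0.19), and Mrc1 stood 5.72-fold above Cd163 (log2 2.52 ± 0.10; SD, n = 2 each). Of the 5 genes of its scavenger receptor family measured, none reached 1 TPM in both pups. Which Cd163 transcript was used could not be read at this depth: Cd163-202 carried 96.3% in pup 1 and 26.8% in pup 2, with a posterior SD of 13.8 reads in pup 1 and 8.97 reads in pup 2. Of 9 genes of haem and iron handling, 7 were detected. The highest included the ferritin genes Ftl1 at 11307 TPM in pup 1 and 10645 TPM in pup 2 and Fth1 at 5809 and 6036 TPM, and the iron exporter gene Slc40a1 at 421 and 485 TPM, which enterocytes also make. The plasma scavenger genes Hpx, at 0.81 and 0.55 TPM, and Hp, at 0.38 TPM in each pup, were not detected.

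Ly6c2, the monocyte gene among the 10, was below 1 TPM in both pups. Ly6c2 (ENSMUSG00000022584.10, chromosome 15, 75108158 to 75111970, minus strand) was at 0.76 TPM in pup 1 and 0.48 TPM in pup 2, with exact 95% Poisson intervals of 0.470 to 1.16 and 0.230 to 0.883 TPM. It rested on expected counts of 20.8 and 9.65, the fewest of the 10 genes. Its near-identical neighbour Ly6c1, a gene of endothelium and lymphocytes, was at 35.1 TPM in pup 1 and 33.0 TPM in pup 2, 48.3-fold higher. Of 822 aligned transcript bases of Ly6c2-201 and Ly6c1-201, 802 were identical (97.6%), and of 393 coding bases 384 were (97.7%). Of 723 windows of 100 bases in Ly6c2-201, 114 (15.8%) also occur in Ly6c1 transcripts, so reads there could belong to either gene and the level of Ly6c2 is uncertain. The 60 coding bases with the most differences (coding bases 6 to 65) are given to show how few letters separate the genes, with the 6 that differ in capitals, from chr15:75111603-75111662 for Ly6c2 and chr15:75048447-75048506 for Ly6c1, both on the minus strand of GRCm38.
Ly6c2-201: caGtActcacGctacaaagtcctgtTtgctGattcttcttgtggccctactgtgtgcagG
Ly6c1-201: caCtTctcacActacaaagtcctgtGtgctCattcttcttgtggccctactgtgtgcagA
GAGGAAGT lay in both Ly6c2 promoter windows, which overlap and differ in their transcription start. The matches in both windows are the same sites of the genome, numbered from different starts. In the window not printed it was at positions -142 to -135 and -8 to -1. A window of Ly6c1 held GAGGAAGT too, at positions -127 to -120. The printed Ly6c2 window (chr15:75111922-75112221, minus strand) holds it at positions -108 to -101 and 27 to 34, in capitals.
Ly6c2: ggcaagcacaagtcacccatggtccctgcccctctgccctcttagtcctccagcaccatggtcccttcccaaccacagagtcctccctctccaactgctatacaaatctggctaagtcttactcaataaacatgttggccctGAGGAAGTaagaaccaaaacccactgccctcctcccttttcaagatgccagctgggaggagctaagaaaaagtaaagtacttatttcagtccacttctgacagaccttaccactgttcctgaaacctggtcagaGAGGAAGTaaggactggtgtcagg

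By list medians, genes of resident macrophages were higher than genes of monocytes, and the size of the gap depended on which genes stood for monocytes. Mrc1 stood 4.00-fold above Ly6c2 (log2 2.00 ± 0.60), Adgre1 3.35-fold (log2 1.75 ± 0.55) and Timd4 2.11-fold (log2 1.08 ± 0.31; SD, n = 2 each). In the same order, the log2 differences fell to 1.52, 1.26 and 0.60 with posterior mean TPM. With a pseudocount of 1 TPM they were 1.21, 1.02 and 0.57, and without length normalisation they rose to 4.31, 3.65 and 2.38. Cd163 did not follow Mrc1, Adgre1 and Timd4, at a log2 difference from Ly6c2 of -0.51 ± 0.50, which was 1.68 without length normalisation. The median of the 7 resident genes (the C1q genes, Mrc1, Adgre1, Timd4 and Cd163) stood 3.41-fold above that of 13 monocyte genes with Ly6c2, a log2 difference of 1.77 ± 0.28 (SD, n = 2). That difference was 1.57 in pup 1 and 1.96 in pup 2. Among detected genes alone it was 0.48, and with Csf1r added against Ly6c2 and Ccr2 alone it was 3.62.

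The monocyte list was uneven. Its highest genes were Plac8 at 1226 TPM in pup 1 and 1218 TPM in pup 2 and Ace at 179 and 186 TPM, both of which intestinal epithelium also makes. Next were S100a4 at 6.9 and 7.0 TPM and Treml4 at 1.73 and 1.10 TPM. The chemokine receptor gene Ccr2, by which inflammatory monocytes leave the marrow, was at 0.94 TPM in pup 1 and 0.70 TPM in pup 2, and Cx3cr1, the receptor gene of resident macrophages and patrolling monocytes, stood 5.39-fold above it at 4.40 and 5.28 TPM (log2 2.43 ± 0.45; SD, n = 2). Of the 13 genes, 5 were detected, and the median was 0.730 TPM. Chil3 and Spn were under 0.1 TPM in both pups, and so was Fcnb. The part of epithelium in the levels of Plac8 and Ace was not tested.

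Other genes of fetal-type resident macrophages spanned a wide range. Of 16 genes, 10 were detected (62.5%, against 59.1% of nuclear protein-coding genes), with a median of 2.62 ± 0.456 TPM (SD, n = 2), against 2.98 TPM over all nuclear protein-coding genes. The highest were Gas6, a bridging ligand for dying cells, at 61.2 TPM in pup 1 and 59.97 TPM in pup 2, Ednrb at 52.1 and 51.1 TPM, the chemokine gene Pf4 at 45.5 and 48.0 TPM and Ccl24 at 23.9 and 26.4 TPM. Ednrb also marks enteric neural crest, and 2 further genes of the list, Lyve1 and Stab1, stand in the endothelium list too. Vsig4, Cd5l and Cd209g were under 0.1 TPM in both pups. Vsig4 and Cd5l also stand in a list of 8 genes of Kupffer cells, the macrophages of the liver, of which 4 were detected: Slc40a1, Timd4, Clec4f at 4.29 TPM in pup 1 and 3.63 TPM in pup 2, and Fcna at 3.28 and 3.87 TPM. The list's median stood 3.03-fold above that of the monocyte genes (log2 1.60 ± 0.36; SD, n = 2). That log2 difference was 0.94 with means in place of medians and 1.00 with a pseudocount of 1 TPM.

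Genes shared by all macrophages had a higher median than genes of monocytes, dendritic cells and neutrophils. Of 20 pan-macrophage genes, 19 were detected, with a median of 15.2 ± 0.212 TPM (SD, n = 2), and among the highest were the lysosomal genes Lgmn at 1078 TPM in pup 1 and 1145 TPM in pup 2 and Ctss at 162 and 157 TPM, with the oxidase gene Cyba at 241 and 226 TPM. Lysosomal genes are also made by absorptive epithelium. The lowest of the list were Itgb2 at 1.66 TPM in pup 1 and 1.34 TPM in pup 2, and Itgam, not detected, at 0.59 and 0.82 TPM. Which cells made the genes of this list was not tested, so gaps between list medians do not compare numbers of cells. The list's median stood 18.3-fold above that of the monocyte genes (log2 4.19 ± 0.09), 48.9-fold above 9 dendritic cell genes (log2 5.61 ± 0.02) and 11.3-fold above 10 neutrophil genes (log2 3.50 ± 0.18; SD, n = 2 each). Among detected genes alone these log2 differences were smaller, at 1.29 over monocyte, 3.21 over dendritic cell and 2.997 over neutrophil genes. Over 13 genes of MHC class II and of adult gut macrophages it stood 11.5-fold (log2 3.53 ± 0.07), and among detected genes alone the log2 difference was 0.04. In that last list Cd74 was at 83.5 TPM in pup 1 and 84.9 TPM in pup 2, H2-Ab1 at 43.3 and 43.1 TPM, H2-Aa at 28.9 and 33.0 TPM and H2-Eb1 at 16.6 and 16.6 TPM, while Il10, the cytokine gene of adult gut macrophages, was under 0.1 TPM in both pups.

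**Figure D2:**
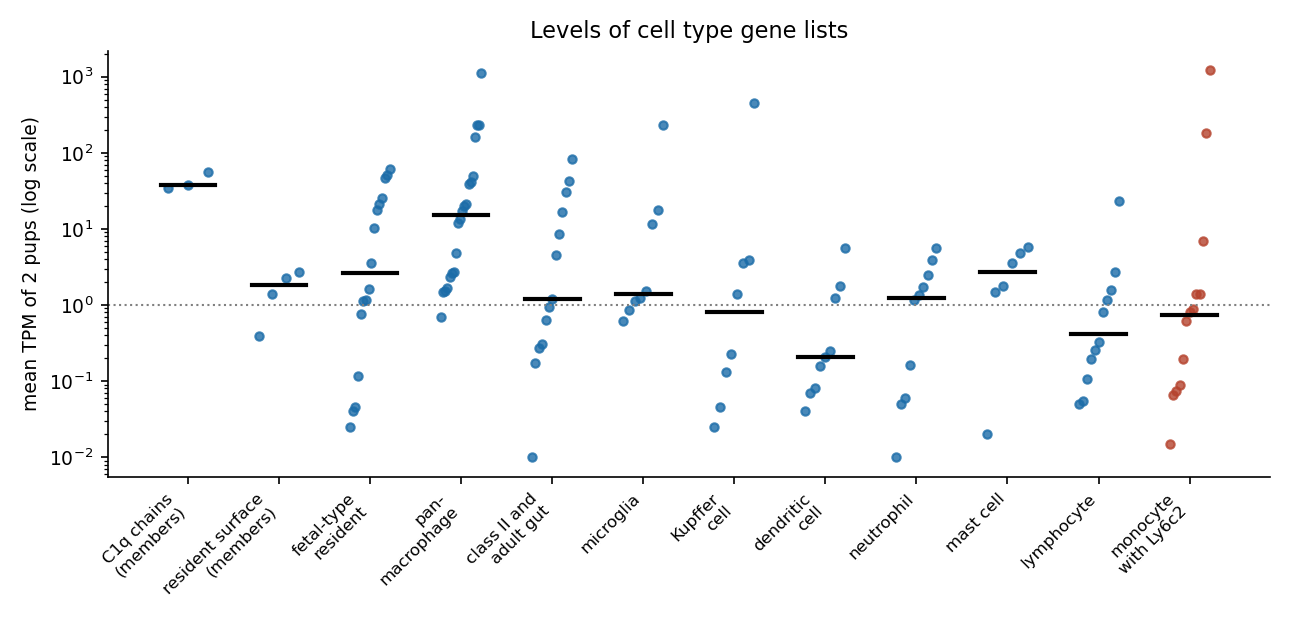
Mean TPM of 2 pups (log scale) for each gene of 12 cell type lists, with a bar at each list's median and a dotted line at 1 TPM. The pan-macrophage median is 15.2 TPM, the dendritic cell median 0.210 TPM and the median of the monocyte genes with Ly6c2 0.730 TPM, with Plac8 and Ace far above it.

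Chemokine genes that draw these cells were uneven. Of 8, 5 were detected (62.5%, near the 59.1% of nuclear protein-coding genes), with Cx3cl1, the ligand of CX3CR1, at 68.9 TPM in pup 1 and 68.3 TPM in pup 2 and Cxcl12 at 46.5 and 46.2 TPM. Ccl2 and Ccl7, the ligands of CCR2, were lower, at 2.71 and 3.51 TPM for Ccl2 and 2.06 and 1.96 TPM for Ccl7. Of 14 genes for the uptake of dying cells, 11 were detected, with Mfge8 at 174 TPM in pup 1 and 173 TPM in pup 2 and Cd36 at 127 and 113 TPM.

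Between the pups, none of the 10 genes was over 2-fold apart, where 0.796% of 19088 genes tested were (0.367% higher in pup 1 and 0.43% higher in pup 2). The rule was that the whole exact (Clopper-Pearson) 95% interval of the pup 1 over pup 2 ratio lay above 2 or below 0.5, and it compares 2 libraries. In 4 of the 10 genes the interval excluded 1, against 29.6% of genes tested. Csf1r was 1.14 (interval 1.11 to 1.17), Csf1 1.14 (1.01 to 1.27) and C1qb 1.10 (1.03 to 1.18), higher in pup 1, where 16.6% of genes tested were. Mrc1 was 0.850 (0.732 to 0.988), higher in pup 2, where 13% were. The transcripts of Csf1r went opposite ways. Csf1r-202, which reaches into the overlap with Hmgxb3, had 9726 counts in pup 1 and 5252 in pup 2. Csf1r-201, which ends before it, had 3196 and 3810. Csf1 no longer excluded 1 when counts were scaled to the total count, at a ratio of 1.11. Of the other genes, Ly6c2 had the widest interval, 0.759 to 4.00 around 1.68, so a 2-fold difference between the pups was not resolvable at this depth. Erythroid genes differed between the pups too, with 5 of 6 intervals wholly below 1 and Hbb-bs at 479 TPM in pup 1 and 730 TPM in pup 2, and their part in these ratios was not tested.

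**Figure D3:**
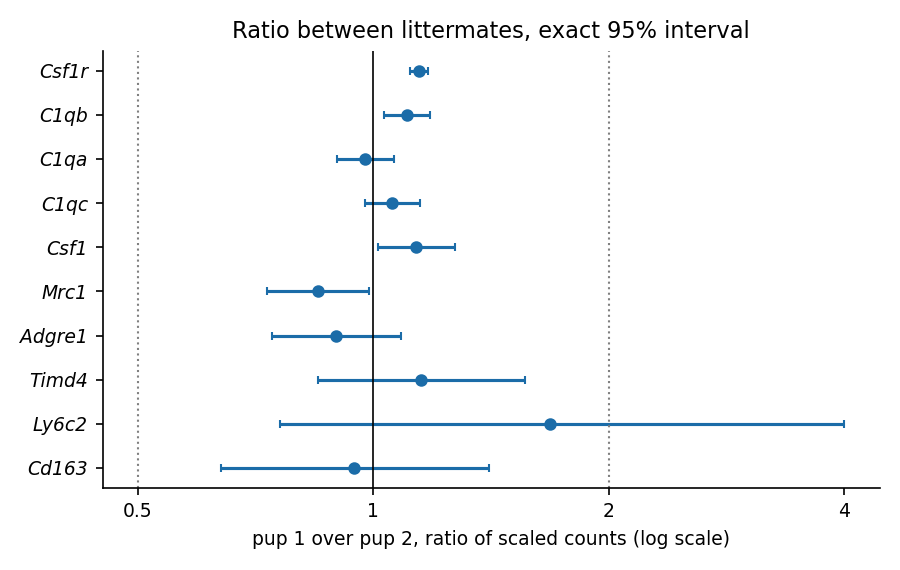
Ratio of scaled counts, pup 1 over pup 2 (log scale), with exact 95% intervals for the 10 genes and dotted lines at 0.5 and 2. No interval lies wholly beyond a dotted line, and Ly6c2 has the widest, from 0.759 to 4.00.

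The transcript shares above are drawn for 5 genes with more than 1 transcript.

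**Figure D4:**
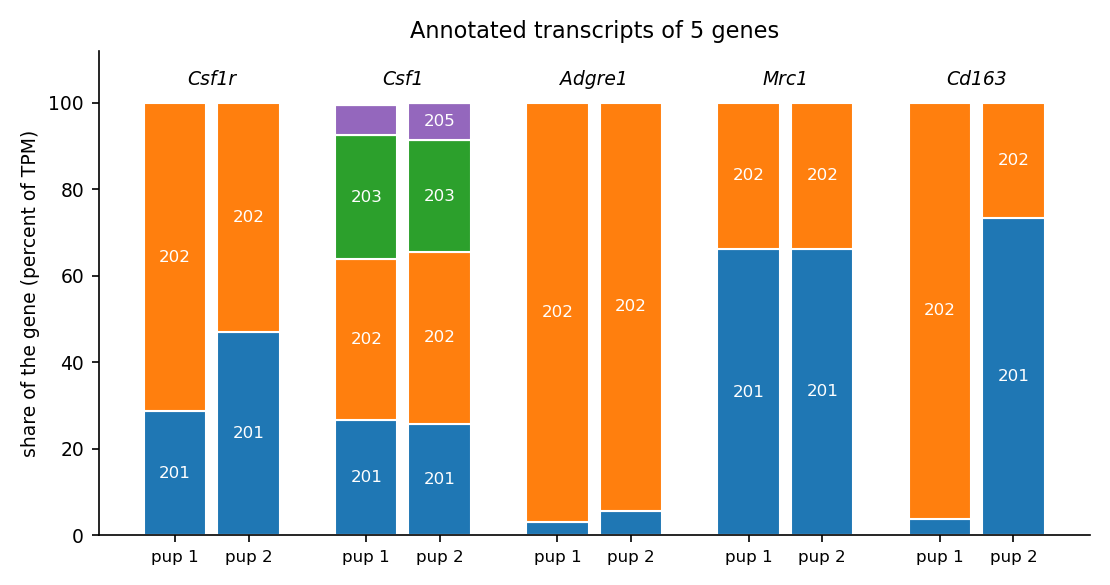
Share of each gene's TPM carried by its annotated transcripts, in percent, in pup 1 and pup 2, with numbers for the transcript names. Mrc1-201 is at 66.1% and 66.2%, while the shares of Csf1r and Cd163 differ between the pups.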

How the data were processed

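For each library the authors deposited a gene table and a transcript table, which hold expected counts (estimated reads, those shared between features being divided), TPM, posterior means and, for transcripts, the share of the gene in percent, per the file headers. The deposited TPM values are relative to effective length and to the sum over features, with spike-ins and mitochondrial genes counted in. The assembly was mm10 with GENCODE M4, per the deposited text file. Aligner, quantifier and strand setting: not given in the sources here; the headers match RSEM output. The input was 10 ng of RNA plus spike-ins, and the cited protocol is the SMARTer Ultra Low kit manual, per the labels. Dividing reads makes levels of near-identical copies such as Ly6c1 and Ly6c2 uncertain.

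GENCODE M21 on GRCm38 gave symbols and positions, matched by identifier for 42462 of 43346 Ensembl genes (98.0%), and promoter sequences from RefSeq (GRCm38.p6). The members, the 30 lists (255 entries, 1 of them not measured), the 21 pairs and the 6 contrasts were chosen with earlier results of these data known. Named were the 10 members, every gene of a pair, the 4 highest genes of each list and up to 4 under 0.1 TPM in both pups. No list gene was over 2-fold apart between the pups. A few genes that the rule names are not reported here. Hmgxb3, Spi1, Stab1, Cdx2, Hpx, Hp, Hmox1, Itgb2 and Itgam fall outside this rule and were chosen after their values were seen. Pairs are log2 ratios of TPM + 0.1 and contrasts are differences between list medians of log2(TPM + 0.1), per pup, as mean ± SD (n = 2). Fold changes on this scale understate changes of low genes. Ratios between pups came from expected counts, rounded to integers, at a summed count of 10 or more. TMM effective sizes came from edgeR 4.0.16 in R 4.3.3, and the exact 95% intervals of the ratios were computed in R too. Poisson intervals of TPM used the same level and came from SciPy 1.17.1. Alternatives were a pseudocount of 1, means over members, detected genes alone, posterior means, no length normalisation, other scalings and detection limits, and each pup alone. Alignments of Ly6c1 and Ly6c2 used Biopython 1.88. The ratio rule was tested on simulated data for 19042 genes, where 95.6% of intervals held the true ratio. There, 100% of genes changed 3-fold were called and 1 unchanged gene was. The simulated counts held Poisson noise alone, less than the spread between these libraries, so this coverage need not hold for them. Changed genes were drawn from well-covered genes only, so calling of low-count genes such as Ly6c2, Cd163 and Timd4 was not tested. Scripts ran in Python 3.11.15 (pandas 2.3.3, numpy 2.4.6) and figures were drawn in matplotlib 3.10.9.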

Additional observations from a re-analysis of the deposited data

How the results depend on the processing

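Detection of 8 of the 10 genes held at 0.5 TPM, with posterior means and in each pup alone, and was 7 at 2 TPM. Without length normalisation C1qa over C1qc was -0.11 and Ly6c2 over Cd163 was -1.68 (Cd163 over Ly6c2 1.68). With a pseudocount of 1 TPM the log2 contrasts were 1.11 for resident over monocyte, 1.00 for fetal-type over monocyte, and for pan-macrophage genes 3.22 over monocyte, 2.86 over MHC class II, 3.73 over dendritic cell and 2.84 over neutrophil genes. With means over members they were 0.94 for fetal-type over monocyte, and for pan-macrophage genes 3.23, 2.48, 4.92 and 4.22 in the same order. With genes at 1 TPM or more alone they were 0.48 for resident over monocyte, and 1.29, 0.043, 3.21 and 2.997 for pan-macrophage genes. With posterior mean TPM pan-macrophage genes were 3.97 over monocyte and 5.54 over dendritic cell genes. With genes under 100 TPM alone, chosen after seeing the data, they were 2.07 for resident over monocyte, and 3.51, 2.55, 4.63 and 2.52 for pan-macrophage genes. Csf1r added to the resident genes, against Ly6c2 and Ccr2 alone, also chosen after seeing the data, gave 3.62. No contrast changed sign, and the cause of these shifts was not tested. With posterior mean counts 81 genes were over 2-fold apart, against 152, and the Mrc1-201 share was 65.8%. No paired analysis was possible because there is 1 group of 2 littermates. With 2 pups the SD is loosely known, and depth limits Ly6c2, Cd163 and their transcripts most.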

Other observations

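Among genes of haem breakdown and of red cells, some differed between the littermates. Hmox1, which encodes the haem-degrading enzyme haem oxygenase 1, was at 57.0 TPM in pup 1 and 28.2 TPM in pup 2, a ratio of 2.11 (exact 95% interval 1.97 to 2.26) that did not lie wholly above 2. Globin genes went the other way, with Hba-a1 at 316 TPM in pup 1 and 485 TPM in pup 2 and Hbb-bt at 191 and 259 TPM. Globin copies are near-identical, so their split is uncertain.

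Of 6 mast cell genes 5 were detected, against 59.1% of nuclear protein-coding genes. Their list median was 2.68 TPM, against 2.98 TPM over all nuclear protein-coding genes. The highest were the protease genes Tpsb2 at 5.38 TPM in pup 1 and 6.28 TPM in pup 2 and Cma1 at 4.65 and 5.14 TPM. Ms4a2 was under 0.1 TPM in both pups. Of 11 lymphocyte genes 4 were detected (36.4%, against the same 59.1%).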
